A study of Mus musculus with 4 samples.

Results

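The transcripts of 34 mouse genes of cholesterol synthesis, its regulation by SREBP and fatty acid synthesis were compared between 2 populations of NF639 cells. The genes were taken by name and not by any measured value, but with earlier results of these data known. For 31 of them the array annotation lists a probe set with that symbol alone, out of 12393 genes so listed in the whole table, and each gene is represented by its probe set with the highest mean signal. Acat2, Insig1 and Soat1 are not analysed here. NF639 is a mouse mammary tumour line from a tumour driven by the ErbB2 (neu) oncogene. The first group was the original population, with 2 arrays. The second, also with 2 arrays, was a pool, and no single clone, that resisted EGCG (epigallocatechin gallate, a polyphenol abundant in green tea). Each array measured total RNA on an Affymetrix Mouse 430A 2.0 chip, and the design text states that the RNA came from independent experiments. The labels do not say if EGCG was in the medium when cells were collected. The comparison asks which of these transcripts differed between resistant and original cells.

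Values are MAS5 signals, a background-adjusted brightness per probe set on a linear scale. The median signal was 135 and 115 for original cells, and 129 and 114 for resistant cells; where 2 values of a group are given, replicate 1 comes first throughout. All 31 genes lay above the filter on dim probe sets (a mean signal of 51.9), and 13576 probe sets were tested. The bacterial spike-in probe sets BioB, BioC and BioDn, added at hybridisation, were brighter on replicate 2 than on replicate 1 in both groups, with ratios of 1.39 to 2.11 for original cells and 1.48 to 2.29 for resistant cells. For this reason results are also given within each replicate number and with that number as a block in the fit, although no label calls the number a batch. Of the epithelial markers, Krt8, Krt18, Krt19, Epcam and Cdh1 all lay below the filter in this line labelled as breast cancer, with signals of at most 62.9, while Erbb2 was detected at 281 to 326. The 5 adipocyte markers found (Adipoq, Lep, Cidec, Fabp4 and Pparg) had signals of at most 22.4.

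Cells make cholesterol from acetyl-CoA through mevalonate, isoprenoid units and squalene, and make palmitate from the same acetyl-CoA by way of malonyl-CoA. When sterols in the endoplasmic reticulum fall, the escort protein SCAP carries the SREBP transcription factors to the Golgi, where proteolysis frees their active part. INSIG proteins hold SCAP back when sterols are plentiful. The freed SREBPs switch on most genes of both routes, and tumour cells commonly depend on these routes for membranes.

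None of the 31 genes passed the test between the groups. In limma with Benjamini-Hochberg adjustment over all probe sets, 0 of 31 passed, with adjusted p from 0.598 upward, against 31 of 13576 probe sets (0.228%), of which 12 were higher and 19 lower. With quantile normalisation 8 probe sets passed, 1 of them higher, and again none of the 31 genes. At an unadjusted p under 0.05 there was 1 of the 31, Fdps, against 1019 probe sets in all. With the replicate number as a block 2 of the 31 passed, Fdps lower and Scd1 higher, beside 5.45% of all probe sets. The block fit gave every probe set the spread typical of its brightness, and the probe set's own spread had no weight. The median log2 fold change of the 31 was 0.06, with 17 above and 14 below 0, and the median of all probe sets was -0.004. Without resistant 1 there were 3 of the 31 past the threshold, all lower (Fdps, Fdft1 and Msmo1), and none without any other array. The fit without resistant 1 sets the single array resistant 2 against the original arrays, which alone give the spread between replicates, so resistant 2 is assumed to vary like them. Leaving out 1 array gave 65 to 164 probe sets in all. The plot of fitted differences shows both standard errors.

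**Figure D1:**
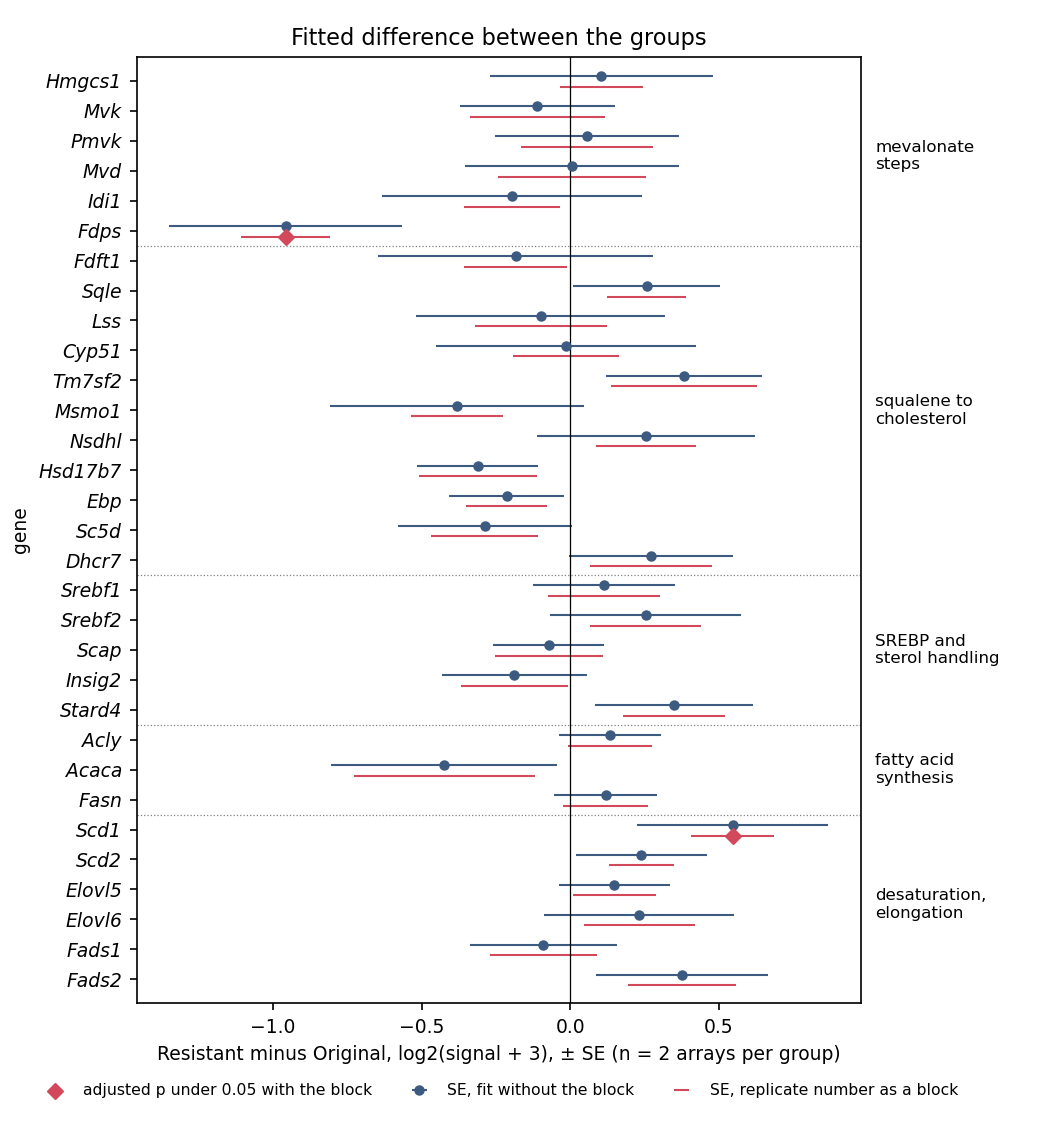
Resistant minus original difference of each of the 31 genes on the log2(signal + 3) scale, with the standard error of the fit without a block (blue) and with the replicate number as a block (red); n = 2 arrays per group. Differences run from -0.96 (Fdps) to 0.55 (Scd1). The diamonds mark these 2 genes, which over the 4 arrays passed with the block and not without it. The red errors take the spread typical of each gene's brightness, not the gene's own.

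The larger differences lay between replicate arrays of 1 group. All 31 genes were dimmer on original 2 than on original 1, and 28 of 31 were dimmer on resistant 2 than on resistant 1. Over all probe sets these shares were 57.3% and 56.5%. The 3 genes that were not dimmer on resistant 2 were Tm7sf2, Ebp and Scap. The median ratio of replicate 1 to replicate 2 over the 31 genes was 1.34 in the original population and 1.67 in the resistant pool, against 1.04 in both groups over all probe sets (ratios of signal + 3). For 26 of 31 genes the gap between the resistant arrays was larger than the fitted difference between the groups, as it was for 60.2% of all probe sets. In 28 of 31 the groups overlapped. Fdps and Hsd17b7 were lower and Tm7sf2 higher in the resistant pool without overlap, beside 36.1% of all probe sets whose groups did not overlap in either direction.

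Among the lists of the 31 genes, the median gap between the resistant arrays was widest in the mevalonate steps and next widest from squalene to cholesterol. Over the 17 genes of both sterol synthesis lists resistant 1 exceeded resistant 2 by a median of 2.13 times. Original 1 exceeded original 2 by a median of 1.34 times. Over the 9 fatty acid genes the medians were 1.27 in the resistant pool and 1.40 in the original population. The difference between the lists was not tested.

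**Figure D2:**
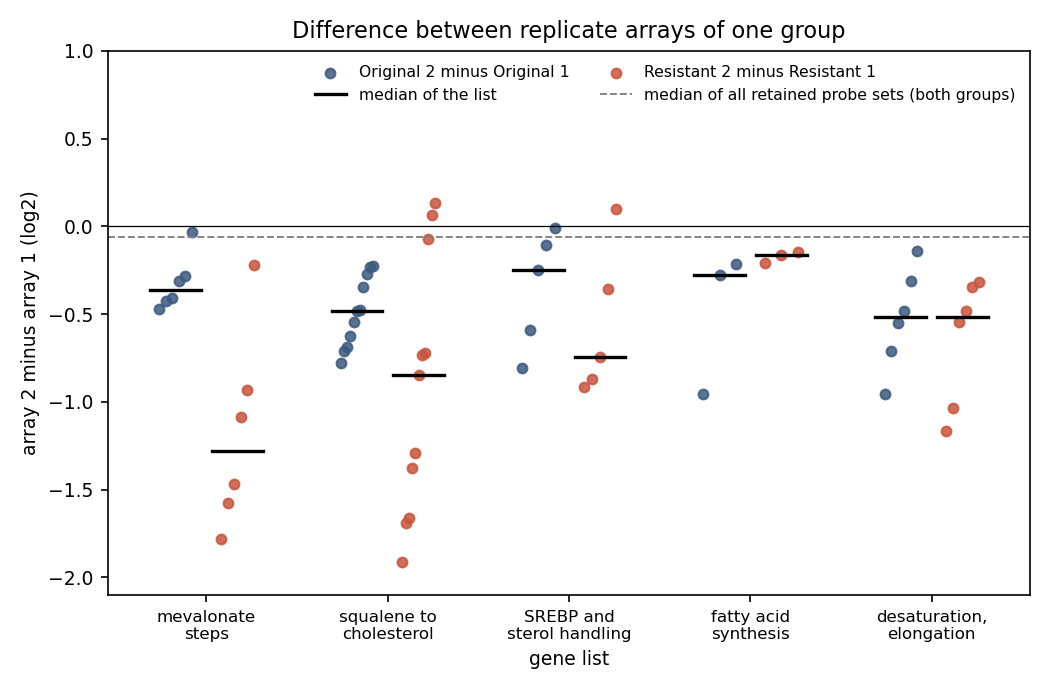
Difference between replicate arrays (array 2 minus array 1, log2) for each gene by list, in the original population (blue) and the resistant pool (red), with list medians as black bars and the median of all retained probe sets, -0.06 in both groups, as a dashed line. The resistant medians were -1.28 for the mevalonate steps, -0.85 from squalene to cholesterol and -0.74 for SREBP regulation and sterol handling. They were -0.52 for desaturation and elongation and -0.16 for fatty acid synthesis.

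The sign of resistant minus original differed with the replicate number. In 12 of 31 genes resistant 1 was above original 1 and resistant 2 below original 2, a pattern seen in 19.5% of all probe sets. Since original 2 was the dimmer original array for every gene, the same 12 had resistant 1 as the brightest and resistant 2 as the dimmest of the 4 arrays, an order found in 9.69% of all probe sets. They were Hmgcs1, Pmvk, Mvd, Idi1, Fdft1, Lss, Cyp51, Msmo1, Nsdhl, Insig2, Stard4 and Elovl6, so that 9 of the 17 sterol synthesis genes were among them. The median difference over the 17 was 0.38 between the arrays numbered 1 and -0.40 between those numbered 2. Summed signals of the 5 fibroblast markers (Pdgfra, Pdgfrb, Dcn, Lum and Col1a1, 4 of them above the filter) also differed with the number, at 3024 and 1634 in original cells and 3894 and 2056 in resistant cells. Pdgfrb made up most of the sum, with 1618 and 1131, and then 2524 and 1333. Col1a1 went the other way in resistant cells, with 172.5 and 164, and then 277 and 412, as did Lum, which was at 14.9 or less. The median ratio of resistant 1 to resistant 2 over the 4 above the filter was 2.43. Dcn dropped with the number in both groups, with 729 and 137, and then 125 and 37.9. Between the groups the fibroblast markers went in opposite directions. On the log2 scale Dcn (-2.15) and Lum (-1.29) were lower in the resistant pool, and Pdgfra (0.72), Pdgfrb (0.44) and Col1a1 (0.99) were higher. None of the 4 above the filter passed in the fit without the block, and Lum was not tested. The groups overlapped for Pdgfra and Pdgfrb. The summed signals of the 4 leukocyte markers found were low, at 143 and 127, and then 158 and 125, with Ptprc at 14.8 or less and Cd68 alone above the filter. The 4 endothelial markers summed to 69.4 or less on every array. The part of the spike-in difference and of these markers in the pattern was not tested.

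**Figure D3:**
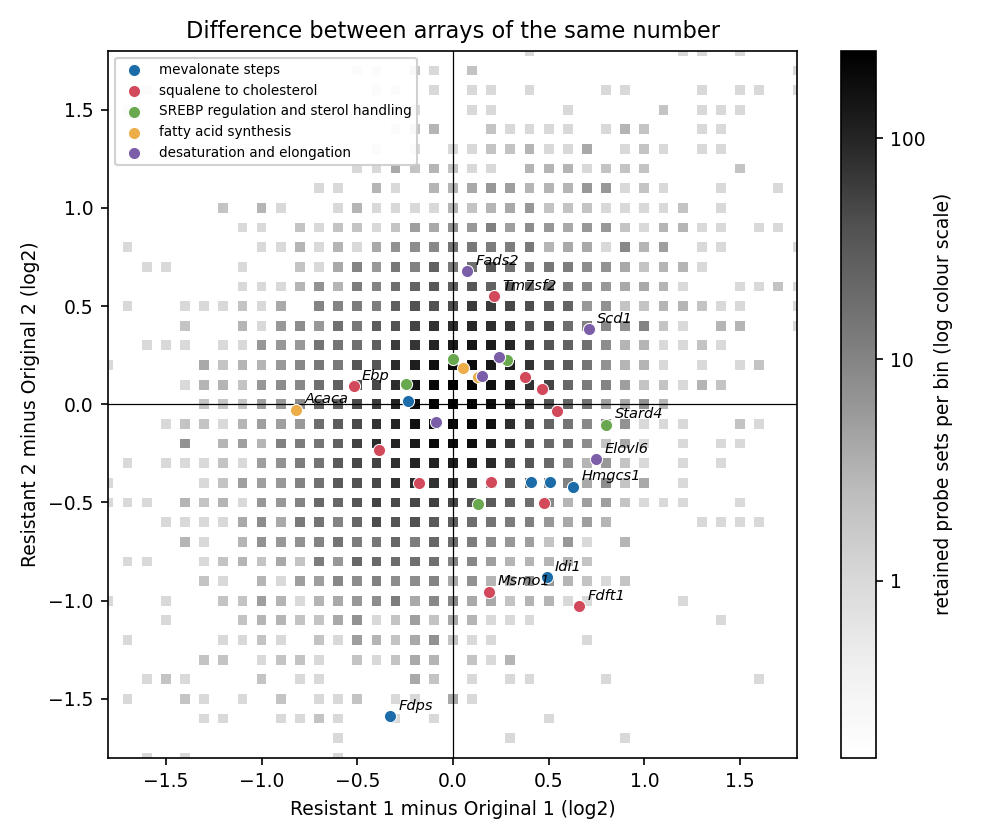
Resistant minus original between the arrays numbered 1 (horizontal) and between those numbered 2 (vertical), both in log2, for the 31 genes coloured by list, over retained probe sets counted in grey bins (those beyond the axes are not drawn). The lower right quadrant holds 12 of the 31 genes, and Fdps lies at -0.33 and -1.59.

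Along the mevalonate steps, Hmgcs1, which makes HMG-CoA, had signals of 3324 and 2475 in original cells and 5143 and 1852 in resistant cells. Its fitted log2 fold change was 0.10 ± 0.375 (SE). The resistant arrays thus lay on either side of both original arrays. Mvk, which phosphorylates mevalonate, had 319 and 229, and then 271 and 232. Pmvk, the next kinase, had 279 and 272 in original cells and 398 and 207 in resistant cells. Original replicates of Pmvk differed by 1.02 times and resistant replicates by 1.91 times. Mvd, the decarboxylase that yields isopentenyl diphosphate, had 207 and 170, and then 276 and 128, and a log2 fold change of 0.01 ± 0.361 (SE). Idi1, which isomerises that product, had 1919.8 and 1443, and then 2699 and 783. The ratio of its resistant arrays was 3.43, against 1.33 for its original arrays.

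Fdps, which joins isoprenoid units into farnesyl diphosphate, the branch point to sterols and protein prenylation, had the lowest fitted difference of the 31. Its signals were 3489 and 2805 in original cells and 2783 and 932 in resistant cells. Both resistant arrays were below both original arrays, resistant 1 by little and resistant 2 by much. The log2 fold change was -0.96 ± 0.391 (SE; limma adjusted p = 0.598), or -0.33 between the arrays numbered 1 and -1.59 between those numbered 2. With the block it passed (limma adjusted p = 2.67e-08), in a fit that leaves 1 residual degree of freedom. That fit took the spread wholly from probe sets of like brightness. The gap between -0.33 and -1.59 in Fdps itself thus had no weight in this p-value. Its value rested on resistant 2, being -1.74 without resistant 1 and -0.17 without resistant 2. Fdps shared the gap between the resistant arrays (2.98 times) with its neighbours Idi1 and Fdft1, but unlike them was not above original 1 on resistant 1.

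From squalene onward, Fdft1, squalene synthase, had signals of 1175 and 1000.1 in original cells and 1859 and 490.1 in resistant cells. The gap between its resistant arrays, 3.77 times, was the largest of the 31 genes, and its second retained probe set gave 3.46 times. Sqle, the squalene epoxidase that is a rate-limiting step, had 3951 and 2828, and then 5136 and 3112. It was above the original array in both numbers (0.38 and 0.14 on the log2 scale), with overlap between the groups. Lss, which cyclises the epoxide to lanosterol, had 379.5 and 219, and then 436 and 166. Cyp51, the lanosterol demethylase, had 1168 and 723, and then 1624 and 510. Msmo1, a methylsterol oxidase, had 2643 and 1806, and then 3019 and 932. All of these but Sqle had the resistant arrays at both ends of the range.

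Nsdhl and Hsd17b7 act with Msmo1 in removing methyl groups. Nsdhl followed the same order, with 1458 and 888 in original cells and 2129.5 and 867 in resistant cells. Hsd17b7 did not, with 593 and 506, and then 453 and 429.7, so that both resistant arrays lay below the original ones (log2 fold change -0.31 ± 0.203 SE). A second probe set of Hsd17b7, with 415 and 168, and then 413 and 178, had its groups overlapping and a difference of 0.04. Tm7sf2, a sterol reductase, had 191 and 158, and then 223 and 233. It was the 1 gene of the 31 higher in the resistant pool without overlap (0.38 ± 0.263 SE; limma adjusted p = 0.839). Ebp, a sterol isomerase, had 4055 and 2902, and then 2829.9 and 3094. Original 1 alone was high for Ebp.

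Sc5d and Dhcr7 act near the end of the pathway. Sc5d, a desaturase, had 1180.1 and 764 in original cells and 1045 and 579 in resistant cells. Dhcr7, the reductase of the last step of one branch, had 402 and 316, and then 558 and 333. Both kept the drop from replicate 1 to replicate 2 in each group, and their fitted differences, -0.29 ± 0.292 and 0.27 ± 0.275 (SE), had opposite signs.

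**Figure D4:**
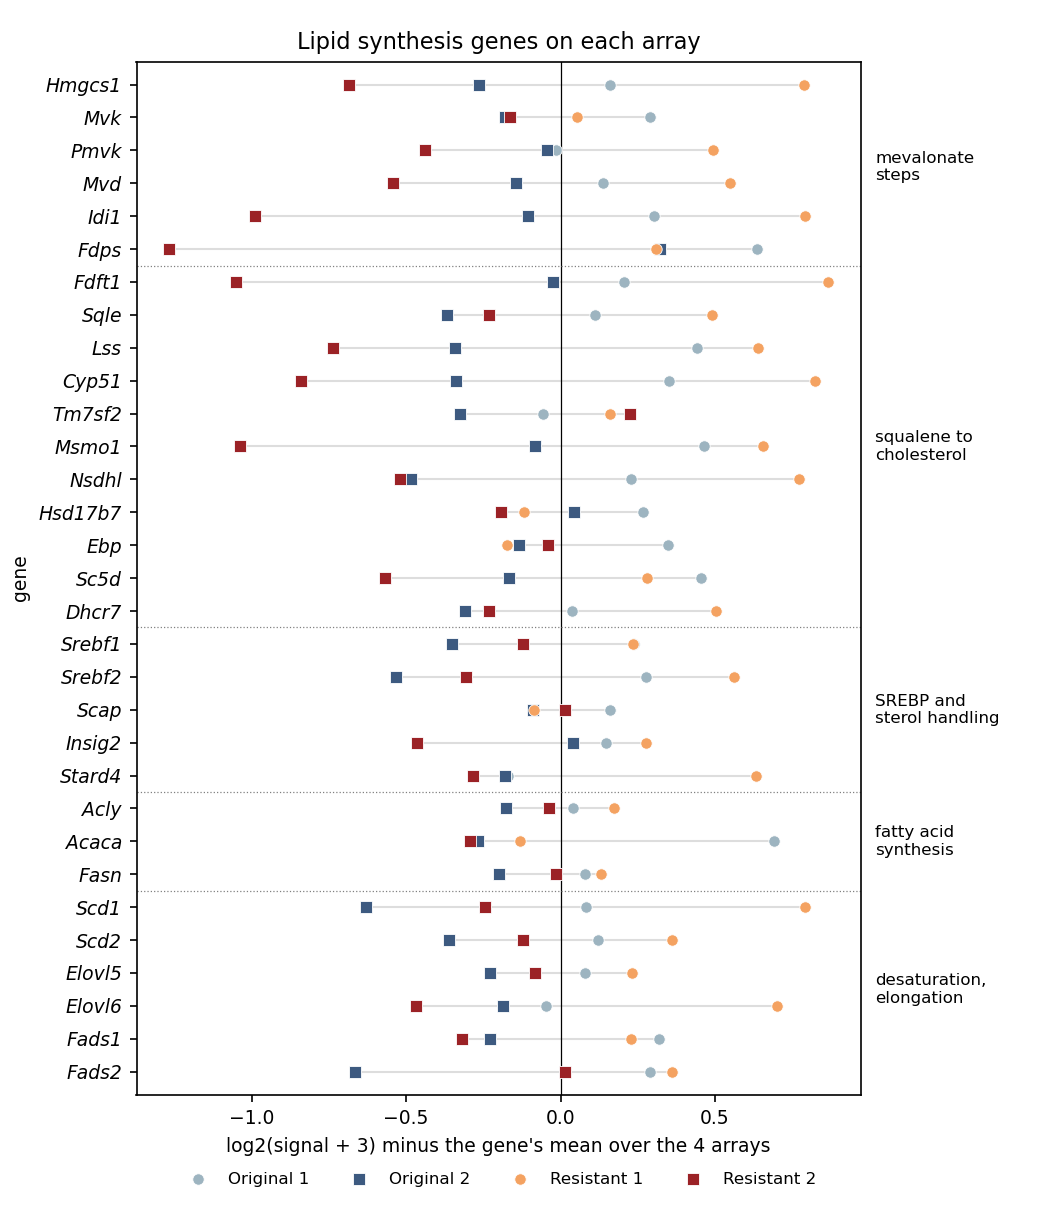
Each gene's log2(signal + 3) on the 4 arrays (circles for replicate 1, squares for replicate 2; blue for the original population, orange and red for the resistant pool), minus the gene's mean over the arrays, with the lists divided by dotted lines. In 12 of 31 genes, 9 of them of sterol synthesis, the orange circle lies farthest right and the red square farthest left.

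The promoters of sterol synthesis genes are shown because these genes varied together between arrays. The RefSeq table of GRCm38.p6 held promoters for 24 of the 31 genes. In the 250 bases before the start, CCAAT, the box bound by NF-Y, a known partner of SREBP, was found on either strand in 19 of the 24 and in 37.5% of 27025 genes. It was in 5 of 5 genes of the mevalonate steps, 9 of 9 from squalene to cholesterol, 3 of 4 regulators, 1 of 3 of fatty acid synthesis and 1 of 3 of desaturation and elongation. The sterol regulatory element TCACNCCAC, searched on both strands, was in Hmgcs1 alone of the 24, and in 1.22% of all genes. Only exact matches to these letters, with N as any base, were counted, so sites that depart from them were missed. The E-box CACGTG was in 5 of the 24 (Hsd17b7, Sc5d, Dhcr7, Scap and Elovl5) and in 6.86% of all genes. The E-box was searched on both strands too, matches of different motifs could overlap, and a gene with several starts counted where any start held the motif. The first 4 promoters below are those with the largest ratio of resistant 1 to resistant 2 among sterol synthesis genes in the table, and the last 2 belong to the genes whose resistant arrays did not drop. Each shows the 200 bases before the start on the gene's strand, with motif matches in capitals (ATTGG is CCAAT on the other strand).
Idi1 promoter, GRCm38.p6, chr13:8885406-8885605, plus strand: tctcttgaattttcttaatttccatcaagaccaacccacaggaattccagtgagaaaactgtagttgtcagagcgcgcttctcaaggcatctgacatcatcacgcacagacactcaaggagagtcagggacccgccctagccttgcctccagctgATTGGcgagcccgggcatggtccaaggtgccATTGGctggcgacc
Msmo1 promoter, GRCm38.p6, chr8:64733579-64733778, minus strand: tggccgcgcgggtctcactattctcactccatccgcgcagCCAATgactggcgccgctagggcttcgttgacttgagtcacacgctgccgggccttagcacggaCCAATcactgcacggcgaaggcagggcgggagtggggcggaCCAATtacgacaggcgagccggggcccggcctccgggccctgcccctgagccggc
Cyp51 promoter, GRCm38.p6, chr5:4104698-4104897, minus strand: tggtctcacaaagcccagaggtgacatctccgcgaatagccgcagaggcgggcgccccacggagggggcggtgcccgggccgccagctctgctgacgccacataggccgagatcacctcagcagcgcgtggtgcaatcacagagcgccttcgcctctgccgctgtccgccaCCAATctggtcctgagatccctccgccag
Hmgcs1 promoter, GRCm38.p6, chr13:119690151-119690350, plus strand: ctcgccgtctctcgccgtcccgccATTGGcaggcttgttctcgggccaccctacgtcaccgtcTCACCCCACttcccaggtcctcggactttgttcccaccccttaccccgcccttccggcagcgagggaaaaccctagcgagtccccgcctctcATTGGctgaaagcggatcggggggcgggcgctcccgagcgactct
Tm7sf2 promoter, GRCm38.p6, chr19:6067851-6068050, minus strand: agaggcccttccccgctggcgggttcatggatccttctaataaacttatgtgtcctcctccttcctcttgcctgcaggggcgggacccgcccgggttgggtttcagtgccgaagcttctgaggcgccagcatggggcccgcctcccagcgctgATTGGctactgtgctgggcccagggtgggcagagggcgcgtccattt
Ebp promoter, GRCm38.p6, chrX:8193513-8193712, minus strand: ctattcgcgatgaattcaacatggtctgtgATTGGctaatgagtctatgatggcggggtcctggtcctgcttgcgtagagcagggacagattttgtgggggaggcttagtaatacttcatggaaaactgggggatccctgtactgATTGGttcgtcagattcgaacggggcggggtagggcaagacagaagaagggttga
Every sterol synthesis gene with a promoter in the RefSeq table held a CCAAT box, Tm7sf2 and Ebp included. A link between these motifs and the signals was not tested. In Hmgcs1 the sterol regulatory element began 137 bases before the start, between CCAAT boxes at 176 and 45.

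Among the regulators, Srebf1 and Srebf2 encode the SREBP precursors. Srebf1 had signals of 778 and 515 in original cells and 777 and 606 in resistant cells, with nearly equal signals on the arrays numbered 1. Srebf2 had 855 and 486, and then 1042 and 569, a log2 fold change of 0.25 ± 0.320 (SE). A dimmer probe set of Srebf2 had 399 and 242, and then 303 and 192, a difference of -0.36, so that the direction of Srebf2 was not settled. Scap had 904 and 760.1, and then 762 and 817, with resistant 2 the brighter resistant array. Insig2 had 921 and 855, and then 1010.2 and 602. The original arrays of Insig2 differed by 1.08 times and the resistant ones by 1.67 times, and each of its 3 probe sets was lowest on resistant 2. Stard4, a carrier of sterols between membranes, had 988 and 979, and then 1724.5 and 912, with resistant 1 alone standing high. Its fitted difference was 0.35 ± 0.264 (SE).

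Of the enzymes that make palmitate, Acly and Fasn varied less between arrays than Acaca. Acly, which makes cytosolic acetyl-CoA from citrate, had signals of 2878 and 2472 in original cells and 3152 and 2722 in resistant cells. Fasn, the fatty acid synthase, had 2953 and 2435, and then 3068 and 2768. The ratio of the resistant arrays was 1.16 for Acly and 1.11 for Fasn, and their log2 fold changes were 0.13 ± 0.172 and 0.12 ± 0.172 (SE). Acaca, the acetyl-CoA carboxylase that makes malonyl-CoA, was dim, with 189 and 95.7, and then 106 and 93.9. Original 1 alone was high for Acaca, and its difference of -0.42 ± 0.379 (SE) was 0.05 without that array.

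Scd1, a stearoyl-CoA desaturase that makes monounsaturated fats, had the highest fitted difference, with signals of 3144 and 1915 in original cells and 5143 and 2502 in resistant cells. Resistant was above original in both numbers, by 0.71 and 0.38, but original 1 exceeded resistant 2, so the groups overlapped. The log2 fold change was 0.55 ± 0.321 (SE; limma adjusted p = 0.788), and Scd1 passed with the block (limma adjusted p = 0.00382). A second probe set of Scd1, with 963 and 591, and then 1074 and 559, differed by 0.04 and passed in neither fit. Scd2, its paralogue and the brightest of the 31, had 9261 and 6614, and then 10948 and 7813. Probe sets of Scd1 and Scd2 can bind related transcripts, and their share in these signals was not tested.

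Of the other desaturases and elongases, Elovl5 had 3157 and 2542 in original cells and 3507.5 and 2816 in resistant cells. Scd2 and Elovl5 were above original by like amounts in both numbers, 0.24 and 0.24 for Scd2 and 0.15 and 0.15 for Elovl5. Elovl6, which elongates palmitate, had 649 and 587, and then 1092 and 483, the order of most sterol genes. Fads1 and Fads2 desaturate polyunsaturated fatty acids. Fads1 had 1026 and 699.8, and then 964 and 658, a difference of -0.09 in each number. Fads2 had 944 and 485, and then 994 and 779. Original 2 alone was low for Fads2, and a second probe set, with 1000 and 490.3, and then 679 and 695, gave a difference of -0.03.

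Other probe sets of the same genes mostly shared the direction of the gap between the resistant arrays, and in several genes not its size. Of the 61 probe sets of the 31 genes 54 were retained (above the filter), and 18 genes had several retained. In 17 of these 18 every retained probe set was dimmer on resistant 2 than on resistant 1, the exception being Fads2. The sign of resistant minus original differed between retained probe sets in 6 genes: Fads2, Fdft1, Hmgcs1, Hsd17b7, Mvd and Srebf2. Hmgcs1, with 4 retained probe sets, had ratios of resistant 1 to resistant 2 of 2.27 to 3.25. The 2 of Cyp51 had 3.17 and 3.25, and the 2 of Idi1 3.42 and 3.43. Other genes had unlike ratios, which were 1.05 and 2.29 for Hsd17b7, 1.16 and 1.72 for Mvk, and 1.40, 2.15 and 2.42 for the 3 of Scd2. The brighter probe set of Fads2 had 1.27 and the other 0.976.

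Of 77 other genes of these and neighbouring pathways 58 were found and 47 retained. None passed the test over all probe sets in limma. At an unadjusted p under 0.05 there were 7 of the 47, against 1019 of 13576 probe sets in all. With the block 3 passed higher, beside 2.36% of all probe sets, and 4 passed lower. Lbr, a sterol reductase of the inner nuclear membrane, had signals of 3384 and 3248 in original cells and 2297 and 2217 in resistant cells. Its difference was -0.56 in the first number and -0.55 in the second, without the replicate gap of the sterol genes (limma adjusted p = 0.343, and 0.00392 with the block). Acat1, a mitochondrial thiolase, was lower with the block (-0.51 ± 0.169 SE without it), as was Acsl5, which activates fatty acids (-0.45 ± 0.162 SE). With the block the lower calls, these and Abcg1, made up 4 of 47 beside 3.09% of all probe sets. Abcg1 was above the filter only through its original arrays.

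Of the 7 retained genes of sterol efflux and storage, 3 passed higher and 1 lower with the block, beside 2.36% of all probe sets called higher and 3.09% called lower. Abca1, which exports cholesterol to lipoproteins, had 113 and 43.3 in original cells and 496 and 85.7 in resistant cells. Its log2 fold change was 1.52 ± 0.699 (SE; limma adjusted p = 0.681 without the block). Original 1 exceeded resistant 2 for Abca1, so its groups overlapped. Abcg1, a related exporter, had 189 and 118, and then 40.8 and 43, a difference of -1.77 ± 0.391 (SE; limma adjusted p = 0.161). Both resistant signals of Abcg1 lay under 51.9, the filter on mean signal, so it was retained only through its original arrays. The fitted differences of Abca1 and Abcg1 thus had opposite signs, and neither passed without the block. Mylip, which targets lipoprotein receptors for degradation, had 383.5 and 297, and then 907.5 and 363, and Npc2, a lysosomal sterol carrier, 5151 and 3038, and then 5887 and 5557. None of the genes retained from the lists of SREBP proteases and upstream factors (5), other SREBP targets (7), glycerolipid synthesis (8) and fatty acid oxidation (8) passed in either fit. The oxidation genes had median ratios of replicate 1 to replicate 2 of 0.948 for the original and 1.09 for the resistant arrays. Their resistant ratios ran from 0.748 (Cpt1a) to 1.69 (Acadm). For sterol efflux and storage the medians were 1.58 for the original and 1.48 for the resistant arrays. The resistant ratios of that list ran from 0.688 (Scarb1) to 5.62 (Abca1). Those of other SREBP targets ran from 0.735 (Tmem97) to 2.99 (Lpin1), with a median of 1.08.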

How the data were processed

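The deposited intensity values were used as given: 1 MAS5 signal per probe set and array on a linear scale, with MAS5 named by the authors in the submitters' processing notes and no version given. Scaling set the 2% trimmed mean of each array to 1 shared value, a pseudocount of 3 was added and log2 taken. Array controls (64 of 22690 probe sets) and probe sets under the 40th percentile of mean signal were left out. limma 3.58.1 in R 4.3.3 (lmFit, eBayes with a trend) compared the groups, with Benjamini-Hochberg adjustment over all 13576 probe sets and a threshold of 0.05, and was tested on simulated data. With 2 arrays against 2 an exact permutation test cannot go below 0.333, so none is given for single genes. The platform annotation named 20380 probe sets with 1 symbol, 691 with several and left 1555 unlisted; all 31 genes matched the RefSeq table of GRCm38.p6.

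The genes, role lists, pathway lists and markers were chosen with earlier results of these data known. Every listed gene found is described, and other pathway genes are named where they passed without or with the replicate block. Deviations from the group means of arrays with the same replicate number correlated at 0.350, over 2 pairs, and no label says that the number marks an experiment. Alternatives covered the block, scaling, pseudocount, filter, variance trend, probe set choice and leaving out each array. Arrays give no count depth: precision is limited by their number.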

Additional observations from a re-analysis of the deposited data

Results flagged for a closer look

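In 12 of the 31 genes, 9 of them of sterol synthesis, resistant cells were above original cells between the arrays numbered 1 and below them between the arrays numbered 2. The difference between the numbers was not tested, since each number holds 1 array of each group.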

How the results depend on the processing

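The count of 31 probe sets was 740 with the replicate number as a block, 8 with quantile normalisation, 5 without the filter, 11 with a filter at the 60th percentile, 5 without the variance trend and 65 to 164 with 1 array left out (164 without original 1, 77 without original 2, 65 without resistant 1 and 108 without resistant 2). A filter on mean log2 signal, chosen after seeing the data, gave 23. The count of 0 of the 31 genes was 2 with the replicate block (Fdps and Scd1), which changed no other gene's call, and 0 to 3 with 1 array left out; it was 0 in the other settings run. The pairing behind the block is not stated by the labels, and in the block fit a probe set's own spread had no weight. The genes' median ran from -0.35 to 0.48 with 1 array left out, the latter without resistant 2. The medians of the 17 sterol genes stayed at 0.33 to 0.40 between arrays numbered 1 and at -0.43 to -0.30 between those numbered 2 over the settings run, and the order with resistant 1 highest and resistant 2 lowest held for 11 to 13 genes; these repeats were added after seeing the data. Over the mean of all its probe sets Srebf2 changed sign, to -0.054.

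With 1 array left out the sign turned in 26 of 31 genes. The log2 fold change ran from -0.63 to 0.84 for Hmgcs1, from -0.54 to 0.55 for Mvd, from -0.35 to 0.13 for Mvk, from -0.41 to 0.52 for Pmvk, from -1.09 to 0.69 for Idi1 and from -1.14 to 0.77 for Fdft1. It ran from -0.10 to 0.62 for Sqle, from -0.79 to 0.59 for Lss, from -0.85 to 0.82 for Cyp51, from -1.23 to 0.46 for Msmo1, from -0.39 to 0.90 for Nsdhl, from -0.45 to 0.026 for Ebp, from -0.71 to 0.14 for Sc5d and from -0.10 to 0.64 for Dhcr7. It ran from -0.56 to 0.18 for Insig2, from -0.20 to 0.052 for Scap, from -0.18 to 0.41 for Srebf1, from -0.18 to 0.69 for Srebf2 and from -0.11 to 0.81 for Stard4. It ran from -0.019 to 0.26 for Fasn, from -0.90 to 0.054 for Acaca, from -0.0026 to 0.48 for Scd2, from -0.0086 to 0.31 for Elovl5, from -0.35 to 0.82 for Elovl6, from -0.36 to 0.18 for Fads1 and from -0.10 to 0.85 for Fads2. Fdps, Tm7sf2, Hsd17b7, Acly and Scd1 kept their sign. With 1 array left out, the lone array of its group is assumed to vary like the other group. In the fit without the block, the precision is limited by 2 arrays a group and the gaps between them.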
